A study of Mus musculus with 2 samples.

Results

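The respiratory chain subunit genes of mouse macrophages were described in 2 libraries of RNA from the nucleoplasmic fraction. Members were the protein-coding genes whose symbols name a subunit of complexes I to V (the mt-Nd, mt-Co, mt-Atp and mt-Cytb genes, and the Nduf, Sdh, Uqcr, Cox and Atp5 families). Subunits with other symbols are not members, such as Cyc1 of complex III, given below with the electron carriers. This gave 98 of 55536 genes, of which 13 are encoded in the mitochondrial genome and 85 in the nucleus. By complex, the nuclear members were 35 of complex I, 4 of complex II, 8 of complex III, 20 of complex IV and 17 of complex V, and 1 further gene, Atp5s, was matched by name only and put in no complex. The mitochondrial members were 7 of complex I, 1 of complex III, 3 of complex IV and 2 of complex V.

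Both libraries belong to 1 group, replicates 1 and 2. Macrophages grown from bone marrow of C57BL/6J mice, an inbred strain, were first exposed for 12 h to Lipid A at 100 ng/ml. Lipid A is the part of lipopolysaccharide that activates Toll-like receptor 4. After a washout of 12 h came a new dose of 100 ng/ml lasting 30 min, and total RNA of the nucleoplasmic fraction was sequenced after ribosomal RNA depletion. The libraries were built from 1 µg of RNA (replicate 1) or 500 ng (replicate 2). The labels give the replicates separate biosamples but the same donor identifier, so the spread between them may be technical in part. No untreated group is analysed here, so nothing below is an effect of Lipid A.

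The respiratory chain passes electrons from NADH (complex I) and succinate (complex II) through complexes III and IV to oxygen, and complex V uses the proton gradient that results to make ATP. Its subunits come from both genomes. The mitochondrial genome is copied into long RNAs from both strands that are cut at tRNAs into mRNAs, while nuclear-encoded subunits are transcribed and spliced in the nucleus, translated in the cytosol and imported. Complex II is encoded in the nucleus alone. In macrophages the chain is known for its shift in use on activation by Toll-like receptor ligands.

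Depth was 23845991 and 20675294 gene counts in replicates 1 and 2, and the limit of 3 counts that a gene at 0 allows came to 0.126 and 0.145 CPM. Levels are given as TPM, a measure scaled by transcript length to a fixed total per library. All 8 macrophage markers were at or above 1 TPM in each library, with group medians of 131 and 200.5. None of the 3 T cell, 3 B cell, 3 neutrophil and 3 fibroblast markers reached 1 TPM in both, and their highest value was 1.16 TPM (S100a8, replicate 2). Of 3 erythroid markers only Alas2 did, at 1.91 and 3.02 TPM, while Hba-a1 and Hbb-bs stayed at or under 3 counts.

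The 13 mitochondrial mRNAs held 671015 counts in replicate 1 and 1415353 in replicate 2, or 2.81% and 6.85% of all gene counts. The 84 nuclear-encoded subunit genes together held 23852 and 22096 counts, or 0.100% and 0.107%. Mitochondrial mRNAs thus had 28.1 and 64.1 times the counts of their nuclear-encoded partners. The RNA came from a nucleoplasmic fraction, and the part of RNA from mitochondria carried over in the fractionation was not tested. In such bulk libraries, more cells with a transcript and more transcript per cell cannot be told apart.

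Among the mitochondrial mRNAs, mt-Co1, the catalytic subunit of complex IV, held most counts, with 409446 in replicate 1 and 660730 in replicate 2. These were 61.0% and 46.7% of the mitochondrial mRNA counts. Its level was 8023 and 17934 TPM. The single mitochondrial subunit of complex III, mt-Cytb, which carries the quinone sites, stood at 1042 and 4676 TPM.

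Of the 7 mitochondrial complex I subunits, all of the membrane arm that pumps protons, mt-Nd6 was highest as deposited, at 2574 and 6279 TPM. It is the only mitochondrial mRNA of the other strand, and shares 14 bases with mt-Nd5. The strand setting is not given, so its counts may include reads of the opposite strand. Of the other complex I subunits, mt-Nd1 stood at 1249.7 and 5770.01 TPM and mt-Nd5 at 1382 and 4872 TPM. The values of mt-Nd4 were 997 and 4368 TPM and those of mt-Nd2 515 and 2907 TPM. The short mt-Nd4l stood at 714 and 922 TPM and mt-Nd3 at 166 and 508 TPM. All 7 were higher in replicate 2 by TPM. By counts per kilobase of annotated length, mt-Nd6 was highest of the 7 in replicate 1 only. In replicate 2 it had 100969, below mt-Nd1 (123655), mt-Nd5 (119121) and mt-Nd4 (102091). The order depends on the table, since in the transcript table made from the read files (called read-based below) mt-Nd4l stood at 4110.4 TPM in replicate 2 and mt-Nd6 at 4002.

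The other complex IV and complex V mRNAs spread more widely. The deposited level of mt-Co2, the subunit that takes electrons from cytochrome c, was 40.6 and 119.6 TPM, the lowest of the 13 in both libraries. That of mt-Co3, the third core subunit of complex IV, was 265 and 259 TPM. In complex V, mt-Atp6, the channel subunit beside the turning ring, stood at 132 and 937 TPM. The neighbouring mt-Atp8 stood at 3693 and 31583 TPM. The highest of the 13 was thus 197 times the lowest in replicate 1 and 264 times in replicate 2.

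The lowest deposited values belonged to genes with near-identical copies in the nuclear genome. A search of all annotated transcripts found a row of pseudogenes on chromosome 1 (chr1:24611535-24616197, minus strand) that match the stretch from the end of mt-Co1 to mt-Nd4. Gm28661 is identical to mt-Co2 over 681 bases, Gm10925 to mt-Atp6 over 678, Gm28437 to mt-Co3 over 783, Gm10222 to mt-Nd4l over 294 and Gm28439 to mt-Nd4 over 876 of its 1378 bases. Gm28438 differs from mt-Nd3 by 1 base in 345, and Gm29216 from mt-Co1 by 1 base in 483. The first 90 bases of mt-Co2 (chrM:7013-7102, plus strand), shown because gene and copy (chr1:24615476-24615565, minus strand) are the same letter for letter, read:
mt-Co2 and Gm28661: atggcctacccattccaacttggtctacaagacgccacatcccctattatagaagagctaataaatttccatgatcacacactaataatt
The only base that parts mt-Nd3 (chrM:9459-9501, plus strand) from Gm28438 (chr1:24613077-24613119, minus strand) is in capitals in their first 43 bases, and is T3C counted from the 5′ end of mt-Nd3:
mt-Nd3: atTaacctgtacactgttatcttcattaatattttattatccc
Gm28438: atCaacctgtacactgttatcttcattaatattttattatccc
The only base that parts mt-Co1 (chrM:6390-6433, plus strand) from Gm29216 (chr1:24616145-24616188, minus strand) is A1066T, counted from the 5′ end of mt-Co1:
mt-Co1: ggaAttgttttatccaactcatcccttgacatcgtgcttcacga
Gm29216: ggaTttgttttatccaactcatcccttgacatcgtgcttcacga
Another copy of mt-Co1, Gm13340 on chromosome 2, is as long as the gene but differs at 37 of 1545 bases. The first 120 bases of mt-Co1 (chrM:5328-5447, plus strand) and of that copy (chr2:22589528-22589647, minus strand) hold 3 of these, in capitals:
mt-Co1: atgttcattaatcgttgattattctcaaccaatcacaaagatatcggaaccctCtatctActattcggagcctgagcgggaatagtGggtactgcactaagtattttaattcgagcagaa
Gm13340: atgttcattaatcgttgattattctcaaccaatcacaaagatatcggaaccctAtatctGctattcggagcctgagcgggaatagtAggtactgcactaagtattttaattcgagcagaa

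Where a copy was identical, many counts were listed under it. In the gene table derived from alignments, Gm28661 held 68887 and 111191 counts against 715 and 1546 for mt-Co2, so 99.0% and 98.6% of the counts of the pair were listed under the pseudogene. Gm10925 held 93.7% and 90.5% of its pair with mt-Atp6 (34216 and 114303 counts against 2305 and 12038). Gm28437 held 88.4% and 94.7% of its pair with mt-Co3 (43377 and 73030 against 5696 and 4060). The shares were 69.9% and 73.8% for mt-Nd3, 64.3% and 87.3% for mt-Nd4l, and 17.7% and 31.2% for mt-Nd4, whose copy covers 63.6% of the gene. The copies of mt-Co1 held few counts, with 4 and 37 for the less identical Gm13340 and 61 and 120 for Gm29216, which matches 31.3% of the gene.

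The split differed between the tables of the same libraries. In the read-based table, the copy held 5.91% and 0.00533% of the mt-Atp6 pair, 17.2% and 42.4% of the mt-Co3 pair, and none of the mt-Nd4l pair. For mt-Nd3 the shares were 0% and 0.00877%. For mt-Co2 they were again high, at 81.7% and 91.4%, and for mt-Nd4 they were 34.5% and 38.9%. Gm29216 held 4639 and 393 counts there, or 1.00% and 0.0441% of its pair with mt-Co1, and Gm13340 held 69.5 and 297. The plot of shares under the copy shows that only the mt-Co2 pair was listed mainly under the pseudogene in both tables. As the sequences are identical, reads from the mitochondrial gene and from its copy cannot be told apart within them.

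**Figure D1:**
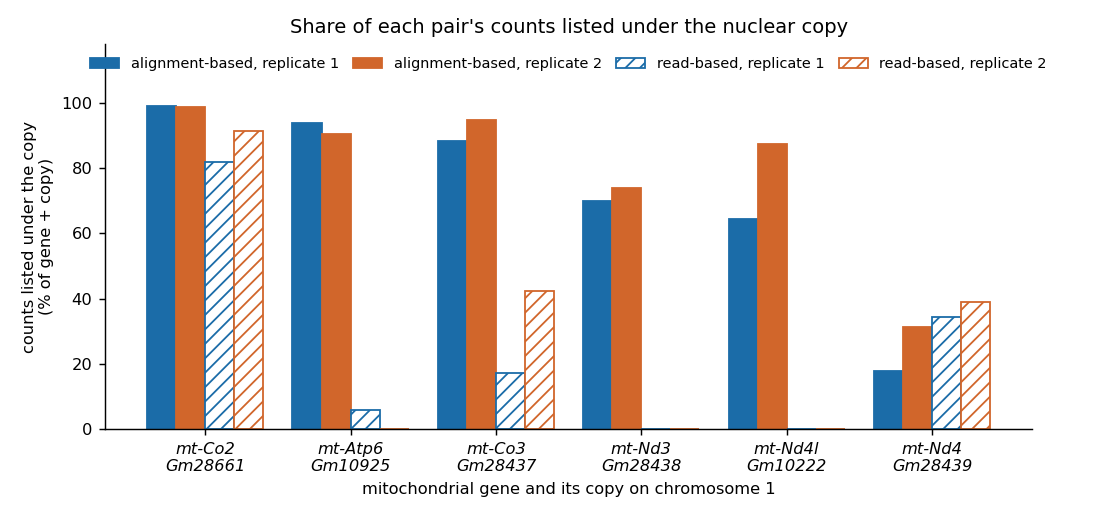
Percent of the summed counts of each mitochondrial gene and its chromosome 1 copy that is listed under the copy, for 6 pairs, with filled bars for the alignment-based table, hatched bars for the read-based table, blue for replicate 1 and orange for replicate 2. Under the copy of mt-Atp6 the alignment-based table lists 93.7% and 90.5%, and the read-based table lists 5.91% and 0.00533%.

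When the counts of near-identical copies were added to the genes, a setting tried only once the data had been seen, the spread among the 13 mRNAs was smaller. The highest TPM was then 15.6 and 16.3 times the lowest in replicates 1 and 2. mt-Co2 moved from 40.6 and 119.6 to 3957 and 8719 TPM, where mt-Co1 alone was higher in complex IV. mt-Co3 moved from 265 and 259 to 2285 and 4909 TPM, and mt-Atp6 from 132 and 937 to 2089.5 and 9837 TPM. In complex I, mt-Nd4l moved to 2001 and 7289.6 TPM and mt-Nd4 to 1212 and 6348 TPM, both above mt-Nd6 in replicate 2. In these sums mt-Co1 held 49.2% and 36.7% of the mitochondrial mRNA counts, and the copies held 19.4% and 21.3%. The deposited 95% credibility bounds bear on the same genes: for mt-Co2, mt-Atp6 and mt-Co3 the deposited TPM lay below its own lower bound in both libraries, as for mt-Co2 in replicate 1, at 40.65 TPM with bounds of 135 and 458. Of the other 10, the TPM of 7 in replicate 1 and 8 in replicate 2 lay above its upper bound, by a smaller margin, as for mt-Co1 in replicate 1 at 8023 with bounds of 7762 and 7818.

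**Figure D2:**
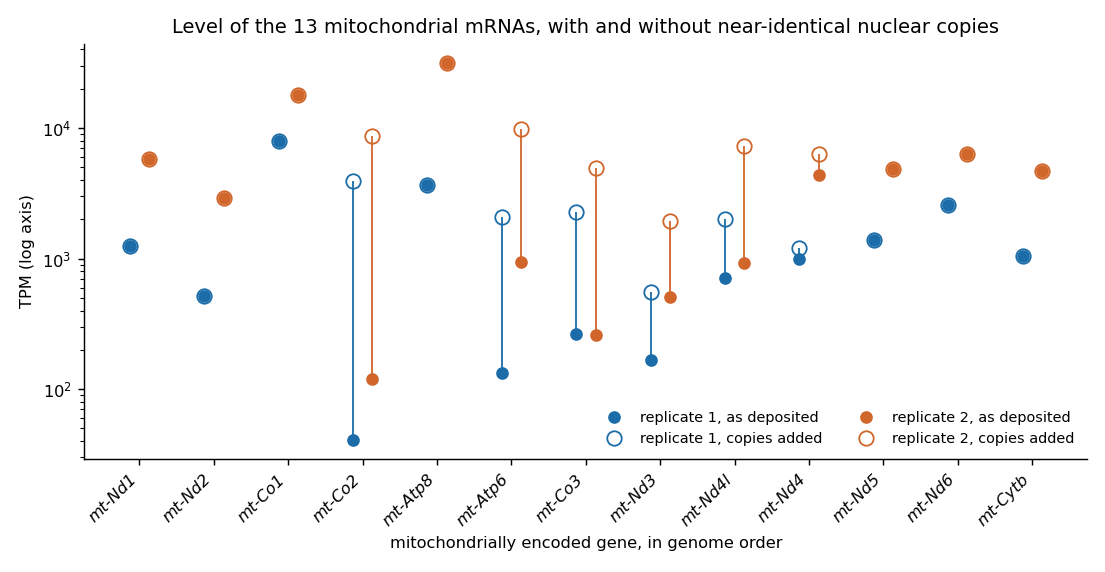
TPM on a log axis of the 13 mitochondrially encoded genes in genome order, filled points as deposited and open points with the counts of near-identical copies added, blue for replicate 1 and orange for replicate 2. The long vertical lines at mt-Co2, mt-Atp6 and mt-Co3 join a deposited level of 40.6, 132 and 265 TPM in replicate 1 to 3957, 2089.5 and 2285 TPM.

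The level of mt-Atp8, highest of the 13 in replicate 2 only, depends on its length. In replicate 1 mt-Co1 was higher, and in the read-based table mt-Co1 was higher in both libraries, at 3109 and 10981 TPM against 723 and 8028 for mt-Atp8. The gene has 204 bases, and the deposited effective length, the number of start positions a fragment could have, was 19.3 and 20.4 bases. With 2772 and 17892 counts it had 13588 and 87706 counts per kilobase of annotated length, against 265014 and 427657 for mt-Co1. Its last 43 bases are also the first 43 of mt-Atp6. The end of mt-Atp8 (chrM:7897-7969, plus strand) is printed with this shared stretch in capitals, where a read belongs to both genes:
mt-Atp8: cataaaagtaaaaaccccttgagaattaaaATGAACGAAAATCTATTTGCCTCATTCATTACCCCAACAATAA
Over the 9 genes of 500 bases or more other than mt-Co1, and with copies added, counts per kilobase ran from 15555 to 101757 in replicate 1 and from 63736 to 185523 in replicate 2. The highest was 6.54 and 2.91 times the lowest, and mt-Nd2 was the lowest in both.

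Between the replicates, 12 of the 13 mitochondrial mRNAs were higher in replicate 2, and 10 were beyond 2-fold. The same call at a mean count of at least 100, over all 9675 such genes, gave 1.67% higher and 1.82% lower. Ratios are log2 of scaled counts, replicate 2 over replicate 1, with a 95% interval for counting error. The median over the 13 was 1.54, against 0.02 over all 9675 genes. This compares 2 libraries, not 2 conditions, and has no replicate check.

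The mitochondrial ratios were not uniform. As deposited, the complex V mRNAs had the highest, mt-Atp8 at 2.89 (2.83 to 2.95) and mt-Atp6 at 2.58 (2.52 to 2.65). In complex I, mt-Nd2 had a ratio of 2.23, mt-Nd1 1.95, mt-Nd4 1.86, mt-Nd5 1.54, mt-Nd3 1.43 and mt-Nd6 1.06, and mt-Cytb of complex III had 1.90. In complex IV, mt-Co1 had 0.89 (0.88 to 0.89) and mt-Co2 1.31 (1.18 to 1.44). In the read-based table mt-Co2 went the other way, with 14075 and 12609 counts at depths of 33095394 and 33056247.

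The 2 lowest ratios belonged to genes with an identical copy. mt-Nd4l had 2193 and 2190 counts, a ratio of 0.20 (0.11 to 0.28). mt-Co3 had 5696 and 4060 counts and was the only one lower in replicate 2, at -0.29 (-0.35 to -0.23). With the copies added, all 13 were higher in replicate 2, 10 of them beyond 2-fold. These were not the same 10, since mt-Nd4l, at 1.69, came in and mt-Co2, at 0.89, dropped out. The ratio of mt-Co3 was then 0.85, and that of mt-Atp6 was 1.99, below mt-Nd2 at 2.23 and mt-Nd4 at 2.12. The 3 complex IV genes then had ratios of 0.89, 0.89 and 0.85, below those of the other 10, of which mt-Nd6 was the lowest at 1.06.

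The 2 mitochondrial ribosomal RNAs went the other way. mt-Rnr1, of the small ribosomal subunit, had 10490 counts in replicate 1 and 6237 in replicate 2, a ratio of -0.55. mt-Rnr2, of the large subunit, had 11979 and 6577 counts, a ratio of -0.67. The libraries were depleted of ribosomal RNA, and the part of that step in the ratios was not tested. The 22 mitochondrial tRNA genes had no counts in the alignment-based table and 1284 and 1940 in the read-based table.

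Nuclear-encoded subunits were nearly all detected, at low levels. Of 84 in a complex, 75 (89.3%) reached 1 TPM in each library, against 41.8% of the 22015 nuclear protein-coding genes. Their median was 7.88 TPM in replicate 1 and 8.35 in replicate 2, beside 2.78 and 3.34 TPM over the 14594 nuclear protein-coding genes listed above 0. The highest was Atp5b at 47.2 and 73.0 TPM.

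Complex I had all 35 nuclear members at or above 1 TPM in each library, with medians of 5.42 and 7.70 TPM. The 7 core subunits, which together carry the flavin and the iron-sulfur clusters, had medians of 9.35 and 12.3 TPM, and the 28 accessory subunits 5.195 and 7.57. The highest were Ndufa3 (10.9 and 33.0 TPM), an accessory subunit of the membrane arm, Ndufs1 (16.5 and 19.3), which holds clusters of the NADH-oxidising arm, and Ndufb8 (11.5 and 19.9). The lowest were Ndufb6 (1.93 and 1.23), Ndufb4 (1.16 and 2.76) and Ndufa11 (3.09 and 3.50), all accessory subunits of the membrane arm.

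In complex II, Sdha, the flavoprotein that oxidises succinate, was highest, at 30.0 and 35.7 TPM. Sdhb, the iron-sulfur subunit, stood at 18.8 and 16.2 TPM. The membrane anchors were lower, with Sdhc at 7.43 and 13.7 and Sdhd at 8.24 and 9.96 TPM. In the read-based table Sdhb and Sdhc were level in replicate 2, at 11.84 and 11.86 TPM.

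In complex III, medians were 9.46 and 12.5 TPM over the 8 nuclear members. Uqcrh, the hinge protein near cytochrome c1, stood at 28.6 and 33.4 TPM and Uqcrb at 10.9 and 34.1. Uqcrc1, a core protein that holds no redox centre, stood at 13.1 and 14.2. The lowest were the Rieske iron-sulfur protein Uqcrfs1 (6.32 and 4.84 TPM), Uqcrc2 (5.47 and 6.72) and Uqcr10 (7.93 and 7.89).

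In complex IV, 12 of 20 nuclear members reached 1 TPM in each library, and medians over the 20 were 5.84 and 5.0 TPM. Cox4i1, a regulatory subunit, stood at 38.7 and 45.2 TPM. Cox7c stood at 31.5 and 47.2 and Cox5a at 28.3 and 34.2 TPM. At the other end 3 genes, Cox7b2, Cox8b and Cox8c, were listed at 0 in both libraries.

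Complex V had medians of 11.85 and 13.7 TPM over 17 records, of which 16 were at 1 TPM or more in both. The catalytic beta subunit Atp5b was followed by the alpha subunit Atp5a1 (30.2 and 41.5 TPM) and Atp5mpl (20.7 and 24.6). Among the lowest were Atp5g1 (2.93 and 5.19) and Atp5d, the delta subunit of the central stalk (6.01 and 7.33). The lowest was a further Atp5o record that had no counts and overlaps the main Atp5o gene (8.23 and 7.12 TPM).

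Set against each other within a complex, mitochondrially encoded and nuclear-encoded subunits did not overlap in TPM in either library. In complex I the log2 ratio of the medians, mitochondrial over nuclear, was 7.52 in replicate 1 and 9.15 in replicate 2. In complex III it was 6.78 and 8.54, and in complex V 7.33 and 10.2. In complex IV it was lowest, at 5.51 and 5.69, where the median mitochondrial gene is mt-Co3 as deposited. There, the gap between the ranges was narrow, with mt-Co2 at 40.65 TPM against 38.73 for Cox4i1 in replicate 1. With copies added, the complex IV ratio was 9.40 and 10.8. The nuclear median of complex IV includes 8 of 20 members that did not reach 1 TPM in both libraries. Without these the ratio was 4.32 and 3.49 as deposited, and 8.22 and 8.57 with copies added.

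**Figure D3:**
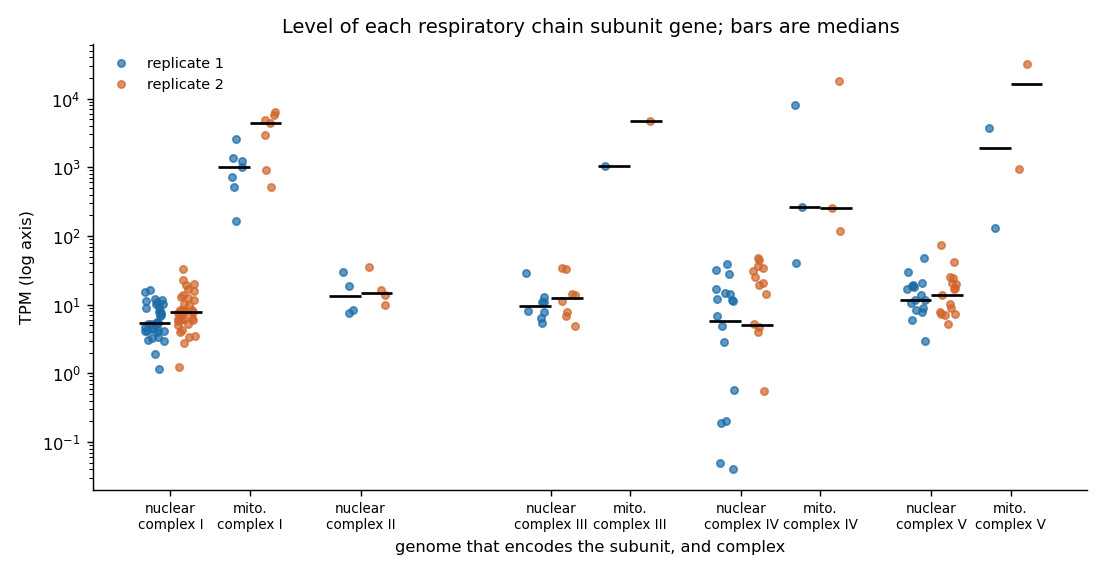
TPM on a log axis of every subunit gene by complex and encoding genome, blue for replicate 1 and orange for replicate 2, with black bars at the medians and members listed at 0 not drawn. Mitochondrially encoded genes lie above all nuclear-encoded genes of their complex, and the medians in complex I are 997 and 4368 against 5.42 and 7.70 TPM.

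Several subunits exist as paralogs used in different tissues, and in each such pair the widely used form carried most of the counts. Cox4i1 had 745 and 619 counts against 1 and 0 for Cox4i2, the form known from lung. Cox6a1 had 194 and 251 against 10 and 7 for Cox6a2, a heart and muscle form. Cox6b1 had 218 and 247 against 2 and 0 for the testis form Cox6b2. For 3 more pairs the other form had at most 1 count in a library: Cox7b (72 and 73) beside Cox7b2, Cox8a (138 and 188) beside Cox8b and Cox8c, and Ndufa4 (70 and 46), counted here in complex IV, beside Ndufa4l2. Counts of 0 allow up to 3 counts, but the read-based table listed more for some of these forms. There Cox4i2 had 17 and 8 counts and Cox6a2 28 and 21 (7.40% and 4.08% of family TPM). The other minor forms named here had at most 4.

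Other families were shared among members. Cox7a2l, which takes part in joining complexes III and IV, held 63.5% and 78.3% of the TPM of its family, Cox7a2 35.5% and 21.7%, and the muscle form Cox7a1 had 2 and 0 counts. In the read-based table Cox7a2 was ahead in replicate 1, with 51.4% and 44.5% against 42.4% and 50.9% for Cox7a2l. Cox7a1 had 21 and 17 counts there, or 6.21% and 4.62% of the TPM of the family. The 3 genes of the rotating c ring encode the same mature protein. Atp5g3 held 60.3% and 58.8% of their TPM, Atp5g2 29.9% and 23.9%, and Atp5g1 9.81% and 17.3%. In the read-based table Atp5g3 again held most, at 76.0% and 75.5%, but Atp5g2 had 11.7% and 8.35%, below Atp5g1 with 12.3% and 16.1%. Ndufb4 had 33 counts in each library, beside 41 and 29 for its processed pseudogene Ndufb4c, so its level is uncertain.

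In contrast to the mitochondrial mRNAs, the nuclear-encoded subunits were close to each other in the replicates. Of 53 whose mean count was at least 100, 32 were higher in replicate 2, beside 53.4% of all nuclear protein-coding genes at that count. The median ratio was 0.04, beside 0.03 over those genes. The counting interval held 0 for 26, lay above 0 for 18 and below 0 for 9, and 42 of the 53 ratios were within 0.5 of 0. By TPM, 43 of the 53 were higher in replicate 2, with a median log2 TPM ratio of 0.30, beside 0.28 over all nuclear protein-coding genes. Shares over all genes were not computed for the interval counts, the 42 or the 43. None of these is thus shown to be particular to the subunits.

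Beyond 2-fold higher were 2 of the 53 nuclear-encoded subunits, and none was beyond 2-fold lower, where the shares over all genes were 1.67% and 1.82%. Uqcrb, an accessory subunit at the quinone site of complex III, had 130 and 300 counts, a ratio of 1.40 (1.10 to 1.71). It overlaps Gm10767, which had 77 counts over both libraries. Ndufv2, a core iron-sulfur subunit of complex I, had 171 and 309 counts, a ratio of 1.05 (0.78 to 1.33). In the read-based table both were again higher in replicate 2, Uqcrb with 175 and 394 counts and Ndufv2 with 265 and 470.

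Next in order above 0 came Ndufa3 at 0.96, with 99 and 168 counts, and Ndufv3 at 0.73, with 82 and 119. The largest ratios below 0 were those of Ndufs3 (322 and 172 counts, -0.71), Uqcrfs1 (278 and 154, -0.65), Atp5g2 (171 and 98, -0.60) and Sdhb (649 and 408, -0.47). Ndufa3 and Ndufv3 passed the count filter only through replicate 2, and Atp5g2 only through replicate 1, in each case the library where the gene was high. The near-identical pseudogenes of Atp5g2, Gm10175 and Gm10231, held 16 and 55 counts, and with these added its ratio was -0.09 (-0.41 to 0.22). Among these genes, Ndufs3, Uqcrfs1 and Sdhb are core subunits of complexes I, III and II. Ndufa3 shares exon bases with Tfpt and Ndufs3 with Kbtbd4, so their counts can include reads of the neighbour. Atp5k (136 and 47 counts, -1.33) and Ndufa5 (60 and 119 counts, 1.18), named after their values were seen, lay beyond 2-fold below that mean count.

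**Figure D4:**
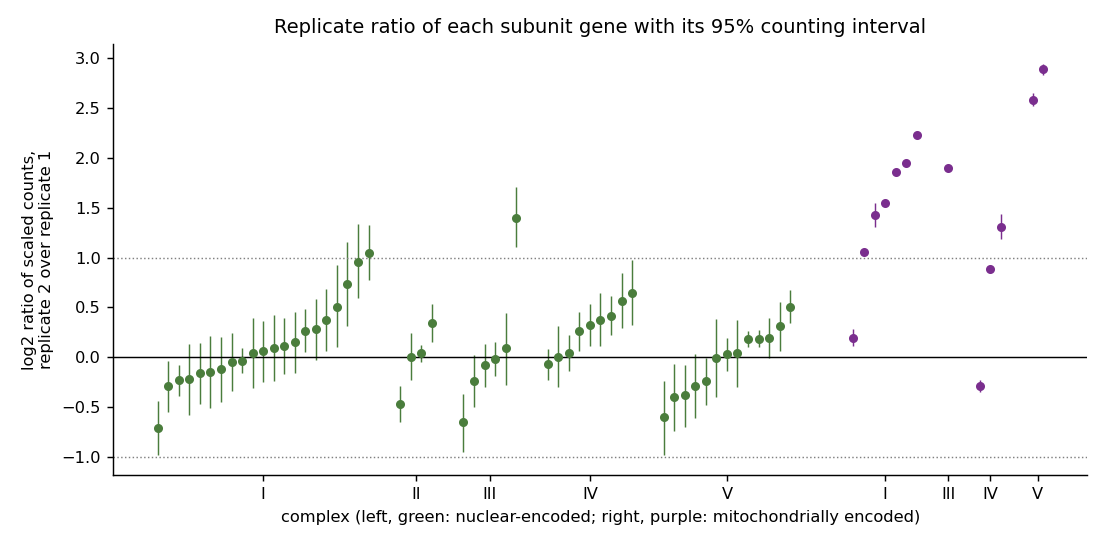
Log2 ratio of scaled counts, replicate 2 over replicate 1, of each subunit gene with a mean count of 100 or more, with 95% counting intervals, green for nuclear-encoded and purple for mitochondrially encoded genes, grouped by complex, with dotted lines at 2-fold. Nuclear-encoded genes run from -0.71 to 1.40 and mitochondrially encoded genes from -0.29 to 2.89.

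RNA of the nucleoplasm includes transcripts that are not finished mRNAs, and the annotation gives many genes noncoding transcripts beside the coding ones. Over the 57 nuclear-encoded subunits with 5 TPM or more in both libraries, the median share of a gene's TPM in protein-coding transcripts was 84.5% in replicate 1 and 92.1% in replicate 2. Over 5445 nuclear protein-coding genes at that level it was 72.5% and 77.8%. Among the 47 subunit genes that have an annotated noncoding transcript, the medians were 82.0% and 85.4%, beside 67.6% and 73.2% over 4769 such genes.

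For 6 of the 47 (12.8%, beside 19.0% of the 4769), protein-coding transcripts held under 50% of TPM in both libraries. In the read-based table this held for 11 (23.4%, beside 31.5%), among them 5 of the 6. Atp5j, a peripheral stalk subunit of complex V, had 20.3% and 17.8%, and 74.6% and 73.9% of its TPM was in transcripts annotated as retained intron. It overlaps Gabpa, which encodes a regulator of respiratory genes and had 1472 counts over both libraries. Atp5f1, another peripheral stalk subunit, had 18.0% and 23.3% in coding transcripts and 52.9% and 50.9% in transcripts annotated as targets of nonsense-mediated decay. It overlaps Gm42890 and Wdr77, which together had 466 counts over both libraries.

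In complex I, Ndufa5 had 18.3% and 39.1% of its TPM in coding transcripts and Ndufa10 28.1% and 30.4%. Ndufa3 had 48.6% and 27.8%, with 43.5% and 70.2% in nonsense-mediated decay transcripts, and was the highest nuclear-encoded complex I gene by mean TPM. In complex IV, Cox5b had 40.1% and 46.2%. Its read-based shares were 48.9% and 55.0%. The read-based transcript table gave lower medians over the 57 genes, at 79.6% and 85.5%, beside 59.8% and 67.2% over the 5445 genes.

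**Figure D5:**
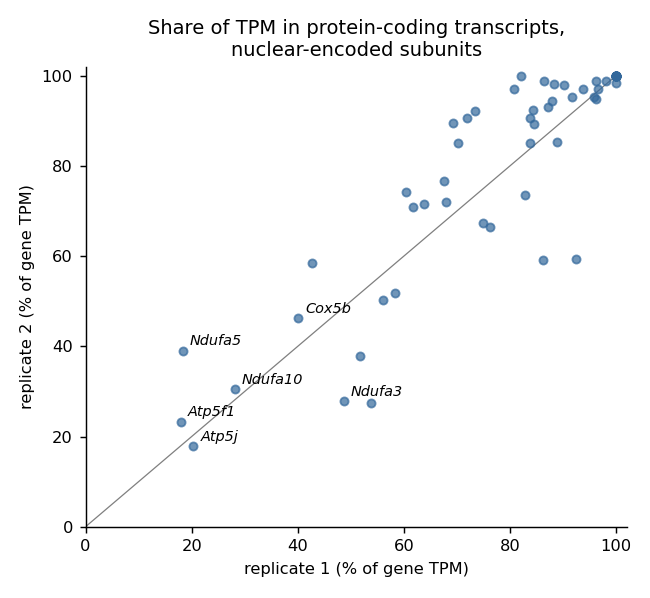
Percent of gene TPM in protein-coding transcripts in replicate 1 (x axis) and replicate 2 (y axis) for the 57 nuclear-encoded subunits with 5 TPM or more in both libraries, with the line of equal values in grey. The 6 genes under 50% in both are named, the lowest in replicate 2 being Atp5j at 17.8%.

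Promoters of the nuclear-encoded subunits were searched for motifs of regulators known for respiratory genes, as a description of the sequence alone. RefSeq windows (GRCm38.p6, 250 bases before to 50 after a start site) were found for 66 of the 84. The NRF1 motif GCGCANGCG was present on either strand for 20 of 66 (30.3%), beside 9.63% of 17492 protein-coding genes and 17.0% of the 7410 of these that reached 1 TPM in each library. The YY1 motif AANATGGCG was present for 10 (15.2%, beside 3.64% and 7.14%), the ETS motif CCGGAAGT of GABPA for 5 (7.58%, beside 5.69% and 10.8%) and the CRE motif TGACGTCA for 4 (6.06%, beside 2.54% and 3.87%). The SP1 motif GGGGCGGGG was present for 10 (15.2%, beside 17.3% and 25.3%). Each motif was searched on its own, so that a base could count for more than 1. Median GC content of the windows was 57.3%, beside 56.3% over all and 60.7% over genes at 1 TPM or more.

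To show such matches, the motif is given in capitals with 10 bases on each side, on the strand of the gene, for the highest gene of each complex whose window holds an NRF1, ETS or YY1 match. For Ndufa5 (chr6:24527698-24527726), Sdha (chr13:74350320-74350348) and Cox6a1 (chr5:115349102-115349130), all on the minus strand, the match is NRF1. For Uqcrh (chr4:116075064-116075091, minus strand) it is ETS and for Atp5b (chr10:128083313-128083341, plus strand) it is YY1, both in reverse complement:
Ndufa5: tgtgtgagctGCGCAGGCGcaaatctacc
Sdha: cgtttacaggGCGCAGGCGcaccaccact
Cox6a1: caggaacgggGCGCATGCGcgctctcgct
Uqcrh: agtatgccgcACTTCCGGccaggtcgcc
Atp5b: acccggattcCGCCATGTTgagtcttgtg

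The regulators themselves were detected, 10 of 11 at or above 1 TPM in each library. Nrf1 stood at 7.08 and 7.29 TPM, Gabpa at 5.36 and 7.72 and Yy1 at 5.03 and 6.77. The highest were Creb1 (14.4 and 20.6) and Esrra (15.6 and 15.0), and the lowest were the coactivators Ppargc1b (2.02 and 2.39) and Ppargc1a, which had 1 and 0 counts. None of the 10 whose mean count was at least 100 was beyond 2-fold between the replicates, beside 1.67% higher and 1.82% lower over all such genes. At those shares a list of 10 may well hold none.

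Of 27 genes that transcribe, process or maintain the mitochondrial genome, 24 were at or above 1 TPM in each library, with group medians of 4.02 and 3.78. Mterf3 (13.9 and 24.9 TPM) and Fastk (18.0 and 15.0) were highest, and Mterf2 (0.19 and 0.16) and the helicase gene Twnk (0.65 and 0.92) lowest. None of the 21 with enough counts was beyond 2-fold, beside 1.67% higher and 1.82% lower over all such genes. At those shares a list of 21 may well hold none. Of the 21, 8 were higher in replicate 2, beside 51.8% of all such genes, and the median ratio was -0.05. The mitochondrial RNA polymerase Polrmt had 227 and 196 counts, a ratio of -0.01. Of the RNAs it makes, the mRNAs had a median of 1.54, and mt-Rnr1 and mt-Rnr2 had -0.55 and -0.67. A link between Polrmt and these ratios was not tested.

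The electron carriers Cyc1 and Cycs stood at 7.37 and 6.60 and at 6.64 and 7.31 TPM. Of 15 assembly factors for complex I, 12 were at or above 1 TPM in each library, with group medians of 1.74 and 2.38, from Ndufaf2 (0.53 and 0.24) and Nubpl (1.00 and 0.91) up to Tmem126b (2.52 and 4.14) and Foxred1 (14.0 and 8.93). For complex II this held for 2 of 4, where Sdhaf2 was highest (6.49 and 10.6), and for complex III for 5 of 6, where Uqcc1 was highest (5.11 and 8.94) and Lyrm7 lowest (0.41 and 0.29).

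The nuclear-encoded complex IV subunits had medians of 5.84 and 5.0 TPM, but over 20 members of which only 12 reached 1 TPM in each library. Of 19 assembly factors for complex IV, 15 were at or above 1 TPM in each library, with group medians of 3.07 and 5.69 TPM. Coa5 (18.0 and 28.0) and the copper chaperone Cox17 (19.8 and 17.9) were highest, while Sco2 stood at 0.34 and 0.98 and Pet117 was listed at 0. Cox20 was the only gene of the assembly lists beyond 2-fold at a mean count of at least 100, with 50 and 209 counts, a ratio of 2.25. It passed that filter only through replicate 2, where it was high. The lists had 6, 2, 2, 10 and 3 genes at that count for complexes I to V, and 1.67% of all such genes were beyond 2-fold higher. For complex V all 4 were detected, led by the ATPase inhibitor Atpif1 at 23.1 and 46.6 TPM, above most of the subunits it acts on, and followed by Atpaf1 at 3.50 and 6.90.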

How the data were processed

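Members and gene lists were chosen with earlier results of these data known. Annotation GENCODE M21 and assembly mm10 were used throughout, per the file headers. For the aligner, quantifier and strand setting nothing is stated (not given in the sources used here). Expected counts in the deposited gene tables are estimates in which ambiguous reads are shared among genes, and deposited TPM was normalised by the authors for effective length to a fixed total per library. The deposited read-based transcript tables hold estimated counts and TPM. Rows that are no gene (tRNA, spike-in and phage, 1.10% and 0.267% of counts) were left out, and expected counts were rounded.

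Ratios between libraries used TMM factors of edgeR 4.0.16 (0.997 and 1.003), a prior count of 0.5 and Clopper-Pearson 95% intervals. Reads counted without identifiers of molecules are not independent, so both intervals and floors describe counting error alone. A gene was called beyond 2-fold where its mean count was at least 100. The series has 1 group, so no groups were compared and no p-value was computed. The ratio was tested on simulated data. Copies were sought with blastn 2.17.0 at 95% identity. A near-identical copy had 99.5% identity over 250 bases or more, and its counts were added on the gene's own effective length. Of the 84 nuclear-encoded subunits, 30 overlap an exon of another gene, 28 of them one with counts, and 22 have a pseudogene at 95% identity over 100 bases or more. With no stated strand setting, reads of the neighbour may be among their counts.

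Named genes were all mitochondrial members, the 3 highest and 3 lowest nuclear members per complex by mean TPM (all 4 for complex II), the isoform families, the 4 largest ratios in each direction, all beyond 2-fold, those with under 50% of TPM in coding transcripts in both libraries, and the 2 highest and 2 lowest of other lists. Others were chosen after their values were seen. Alternatives were scaling by library size or by DESeq2 1.42.0 size factors, other filters, prior counts and units, the read-based table, each library alone and, added after seeing the data, the sum with copies, nuclear members at 1 TPM or more, and the read-based count of genes under 50% coding. Software was matplotlib 3.10.9, scipy 1.17.1, pandas 2.3.3 and numpy 2.4.6 under Python 3.11.15, and R 4.3.3.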

Additional observations from a re-analysis of the deposited data

How the results depend on the processing

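Of 89 values computed under another setting, 73 stayed close to the main value (within the spread between replicates, or for a count within 1.5 times) and 16 moved, with no reversal. Some of the 73 could not have moved, so their number is not a measure of robustness. A median level or ratio of medians from a single library always lies within the spread of both. A common scaling of TPM cancels in a ratio of medians, and in complex III mt-Cytb has no copy to add. Those that moved follow, and the cause was not tested unless the setting itself gives it. The median TPM of mitochondrially encoded subunits, averaged over both libraries, was 2683 and became 9733 with TPM taken over protein-coding genes alone, which makes the total smaller. That of nuclear-encoded subunits was 8.11 and became 33.2 in the same way and 5.59 in the read-based table. The log2 ratio of medians, mitochondrial over nuclear, was 5.60 in complex IV and became 7.76 in the read-based table, 4.38 without genes under 500 bases, 10.1 with copies added, 3.91 over the nuclear members that reached 1 TPM in each library and 8.39 with both changes. In complex V it was 8.77 and became 6.23 by counts per kilobase and 4.71 without genes under 500 bases, which leaves out mt-Atp8. The median ratio between replicates of mitochondrially encoded subunits was 1.54 and became 1.88 in the read-based table and 1.69 with copies added. Nuclear-encoded subunits beyond 2-fold numbered 2 of 53 and became 4 of 75 at a mean count of 10 or more and 8 of 80 with no filter. Those with no filter include Cox7a1 and Cox6b2 (2 and 0 counts each) and Cox4i2 and Ndufa4l2 (1 and 0 each), at the floor. Shares over all genes were not computed at these 2 filters. The median share in protein-coding transcripts was 87.2% and became 79.8% in the read-based table, and subunits under 50% there numbered 6 and became 11.

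Each library alone gave a median of 997 to 4368 TPM for mitochondrially encoded and 7.88 to 8.35 for nuclear-encoded subunits, ratios of 7.52 to 9.15 (complex I), 6.78 to 8.54 (III), 5.51 to 5.69 (IV) and 7.33 to 10.2 (V), and a coding share of 84.5% to 92.1%. No paired analysis was possible because the series has 1 group. Depth limits the 31 nuclear-encoded subunits under a mean count of 100, whose ratios are imprecise. Near-identical copies limit mt-Co2, mt-Atp6, mt-Co3, mt-Nd3, mt-Nd4l, mt-Nd4, Atp5g2, Ndufb4 and Ndufa12. Ndufa12 had 49 and 85 counts and its copy Gm15920 had 21 and 39, and with these added its ratio went from 0.99 to 1.02.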
